A study of Mus musculus with 39 samples.

Results

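The genes of glycolysis and of the transcriptional response to low oxygen were followed across 39 mouse mammary tumours. Members were chosen by gene symbol, as 39 of the 53715 genes of the count table. They comprise 4 glucose and lactate carriers, 16 glycolytic enzymes, 3 enzymes that regulate glycolysis or the use of pyruvate, 4 subunits and oxygen sensors of the hypoxia-inducible factor (HIF) system, and 12 further hypoxia response genes. All 39 passed the low-count filter in each comparison.

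The tumours were adenocarcinomas of no special type from female mice in which Cre recombinase, driven by the milk protein gene promoter Blg, which is active in mammary epithelium, deleted conditional Brca1 on a p53 heterozygous background. The cohorts differed in Lyn, a Src-family kinase gene with a floxed exon: 13 tumours were Lynfl/fl, 14 Lynfl/wt and 12 Lynwt/wt. The Brca1 deletion, the loss of 1 p53 copy and the Cre transgene were thus common to all groups, and no tissue without them was analysed here. The study also divided the tumours by their own expression values, into 13 Lyn-high and 13 Lyn-low tumours by Lyn counts (13 were in neither) and, by principal component analysis (PCA) of all genes, into 29 tumours of PCA group 1/2 and 10 of PCA group 3/4. Each tumour gave 1 library, with a total count of 50490044 to 83122719. Of the 28 animals 9 gave more than 1 tumour (20 tumours together), so some tumours share an animal, and p-values measure the spread between tumours. RNA came from tumour pieces cut outside necrotic areas. Tumours are named as in the labels by cohort (WT, HET, HOM) and number.

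Glycolysis splits glucose into pyruvate, which is turned into lactate when oxygen is short or when cells, as many tumour cells do, make lactate with oxygen present. The HIF alpha subunits are hydroxylated by oxygen sensors and degraded in oxygen. When oxygen falls they persist, pair with a constitutive partner and switch on glucose carriers, glycolytic enzymes, angiogenic factors and pH-regulating carbonic anhydrases. HIF activity is set largely at the protein level, so that the transcript of a HIF subunit is no reading of that activity.

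HIF dimers are known to bind a short core, written here as ACGTG or GCGTG. It was searched on both strands in windows from 250 bases before to 50 after each RefSeq gene start (GRCm38.p6), counting overlapping matches. Of the 39 members 35 had a window, 53 windows in all; Slc2a3, Epas1, Bnip3l and Ndrg1 were not matched. At least 1 match stood in 40 of the 53 windows (75.5%), and in 43.8% of all 32851 windows. ACGTG alone stood in 52.8% of the member windows and in 19.6% of all windows. A match describes the letters only and is not a binding site. Of the 13 members of the most similar and most opposed pairs described below, 12 had a window, and in 7 of these the 160 bases up to the most upstream gene start held no exon annotated by Gencode vM21. Shown are those 7 stretches, with whole matches in capitals.
Pgk1 (chrX:106186940-106187099, plus strand): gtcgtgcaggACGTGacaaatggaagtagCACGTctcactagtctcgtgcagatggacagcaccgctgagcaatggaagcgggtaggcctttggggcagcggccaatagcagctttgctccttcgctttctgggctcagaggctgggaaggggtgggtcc
Pgam1 (chr19:41911711-41911870, plus strand): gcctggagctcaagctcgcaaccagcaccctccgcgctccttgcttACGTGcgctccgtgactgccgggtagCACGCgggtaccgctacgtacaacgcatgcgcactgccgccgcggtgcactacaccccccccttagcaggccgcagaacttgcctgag
Ldha (chr7:46845644-46845803, plus strand): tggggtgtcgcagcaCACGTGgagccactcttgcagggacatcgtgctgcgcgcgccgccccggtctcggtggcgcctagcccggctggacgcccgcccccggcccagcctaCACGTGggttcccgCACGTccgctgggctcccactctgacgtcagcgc
Hk2 (chr6:82774455-82774614, minus strand): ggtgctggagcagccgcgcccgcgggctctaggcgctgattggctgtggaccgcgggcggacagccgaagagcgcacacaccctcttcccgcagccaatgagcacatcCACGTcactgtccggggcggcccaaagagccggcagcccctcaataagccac
Pdk1 (chr2:71873064-71873223, plus strand): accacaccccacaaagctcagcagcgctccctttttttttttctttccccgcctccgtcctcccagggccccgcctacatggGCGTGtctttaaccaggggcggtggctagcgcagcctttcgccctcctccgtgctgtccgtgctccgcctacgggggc
Hif1a (chr12:73907707-73907866, plus strand): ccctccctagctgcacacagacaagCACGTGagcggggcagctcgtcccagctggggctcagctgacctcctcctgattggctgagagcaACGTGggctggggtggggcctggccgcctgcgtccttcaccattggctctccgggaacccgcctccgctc
Egln3 (chr12:54203875-54204034, minus strand): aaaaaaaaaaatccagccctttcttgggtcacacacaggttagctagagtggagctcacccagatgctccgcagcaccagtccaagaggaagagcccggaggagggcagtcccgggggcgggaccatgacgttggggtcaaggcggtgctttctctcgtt
The Ldha stretch held 5 matches and that of Hif1a 3, all ACGTG. Those of Pgk1 and Pgam1 held 2 each and those of Hk2 and Pdk1 1 each. The match of Pdk1 was GCGTG, and Pgam1 had 1 of each form. The Egln3 stretch held 0, the single match of its window standing further upstream, and the 5 stretches that overlap an exon held 0 to 3.

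Glycolytic enzymes were the most abundant members. Levels between genes were compared as normalised counts per kilobase of exon, where normalised counts are counts scaled by the trimmed mean of M-values (TMM) to the mean library. Of the 8 members with the highest median, 7 were glycolytic enzymes: Gapdh (33875 per kilobase), Pkm (25142), Aldoa (23280.3), Tpi1 (16677), Eno1 (15909), Ldha (15904) and Pgk1 (13585). Ndrg1, a stress-responsive gene of differentiation, came next at 5078 per kilobase. The lowest medians were those of Pfkfb4 (139.7), the neuronal enolase gene Eno2 (36.6) and the neuronal glucose carrier gene Slc2a3 (31.4). The ranges of neighbours in this order overlapped over the 39 tumours. Gapdh, Eno1, Aldoa, Tpi1, Pgk1, Pgam1, Pkm and Ldha have processed pseudogenes, and reads mapping to several places were left out by the authors, so their counts are uncertain.

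**Figure D1:**
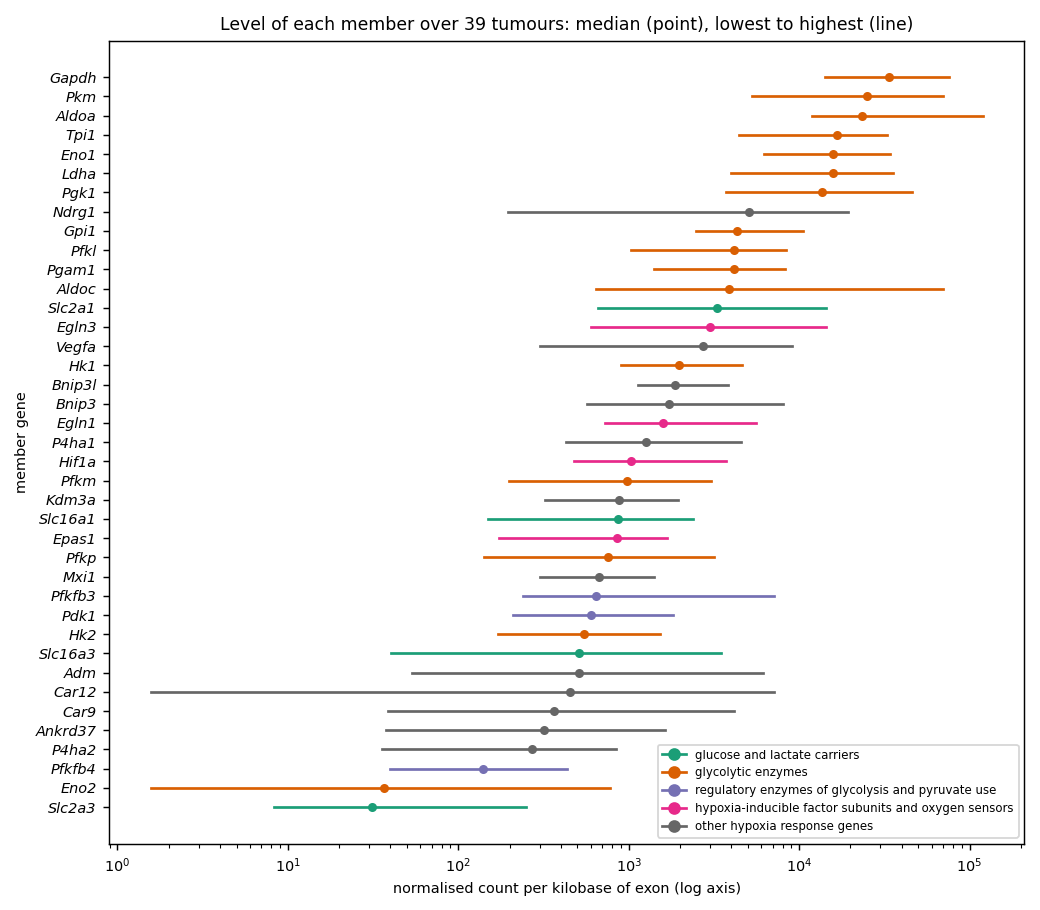
Normalised count per kilobase of exon on a log axis for each of the 39 members; the point is the median over 39 tumours, the line runs from the lowest to the highest tumour, and the colour gives the role. Glycolytic enzymes, led by Gapdh, take 7 of the 8 highest medians, and Car12 has the longest line.

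Members differed widely in how much they varied between tumours. The 90th percentile of normalised counts exceeded the 10th by over 10-fold in 8 members and by under 3-fold in 7. Gapdh, the glyceraldehyde phosphate dehydrogenase gene that is also a reference gene of the study's qRT-PCR, had the smallest ratio (2.1), with 58374 to 313713 normalised counts. The next smallest ratios were those of the mitophagy receptor gene Bnip3l (2.34) and the glucose phosphate isomerase gene Gpi1 (2.48).

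The 5 members with the widest range were mostly hypoxia response genes. Car12, a membrane carbonic anhydrase, ran from 12 normalised counts in HET.25 to 54292 in HOM.56 (ratio of the percentiles 121). Adm, the gene of the vasodilator adrenomedullin, ran from 87.2 in WT.02 to 9975 in HET.45 (ratio 31.8). Car9, a carbonic anhydrase gene widely used as a marker of hypoxia, ran from 89.1 in WT.02 to 9609.7 in HET.08 (ratio 26.2). Thus both Adm and Car9 were lowest in WT.02, and their highest tumours were Lynfl/wt. Eno2 ran from 7.41 in HOM.74 to 3655 in HET.49 (ratio 18.3), and Ndrg1 from 1286 in WT.60 to 126888 in HOM.54 (ratio 16.1). No single cohort held the highest tumours of all 5.

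Where several genes encode the same step, the share of each was taken per length within a tumour. In the pair of enolase members Eno1 made up nearly all, with a median share of 99.7%, and the share of Eno2 reached 8.36% in HET.49. Hk1, the constitutive hexokinase gene, made up a median of 79.3% of the hexokinase pair and the inducible Hk2 20.7%, with 55.3% in HET.08. Among phosphofructokinases the liver form Pfkl led with 64.8%, ahead of the muscle form Pfkm (18.1%) and the platelet form Pfkp (13.8%). Length here is that of all annotated exons merged, 13401 bases for Pfkp and 3340 for Pfkm. The order of Pfkm and Pfkp rests on it, as undivided normalised counts had the higher median in Pfkp (10078 against 3283). In the aldolase pair the share of the brain form Aldoc ran from 0.815% to 67.5% with a median of 10.4%.

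The cohorts were compared first, which asks whether the members differ with the Lyn genotype. No member passed the test between Lynfl/fl and Lynwt/wt tumours (edgeR's quasi-likelihood F test, adjusted p under 0.05 over 18998 genes), and no member was called by DESeq2, which called 0.258% of all genes higher and 0.59% lower. Over all genes in edgeR 0.00526% passed as higher and 0.0316% as lower. At an unadjusted p under 0.05, 5 members were higher and 0 lower, where 4.07% of all genes were higher and 7.46% lower. Of the 39 log2 fold changes 28 were positive, with a median of 0.14 against -0.05 over all genes. Lyn itself, whose counts over the whole gene cannot show whether an exon was lost, had 672 to 5640.1 (median 1732) normalised counts in the Lynfl/fl cohort, against 1799.6 to 11463 (median 3126) in the Lynwt/wt cohort. The paper found the floxed allele still intact in cultures of some tumours. It reported less LYN staining of tumour cells in the Lynfl/fl than in the Lynwt/wt cohort, and no difference in normalised Lyn counts between cohorts. Yet it saw strong LYN staining in some Lynfl/fl tumours and little or none in some Lynwt/wt tumours. The cohort comparisons are therefore by genotype and not by measured loss of Lyn.

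The 6 members with the smallest p between these cohorts were higher in Lynfl/fl on average, with overlapping values. Kdm3a, a histone demethylase gene induced by hypoxia, had 2659.9 to 8964 (median 6533) normalised counts in the Lynwt/wt cohort, against 4110.1 to 16099 (median 9241) in the Lynfl/fl cohort. Its log2 fold change was 0.64 (SE 0.23, unadjusted p = 0.00949, adjusted p = 0.275). The cohorts overlapped and the difference did not pass. Egln1, the main HIF prolyl hydroxylase gene, had 2626 to 10724 (median 4766) in Lynwt/wt, against 4353 to 20021 (median 7311) in Lynfl/fl tumours, a log2 fold change of 0.65 (SE 0.26, unadjusted p = 0.0148, adjusted p = 0.312). Ldha, the lactate dehydrogenase subunit gene, had 20325 to 76376 (median 40956) in Lynwt/wt, against 31828 to 104772 (median 65126) in Lynfl/fl tumours, a log2 fold change of 0.59 (SE 0.25, unadjusted p = 0.0242, adjusted p = 0.349). Neither passed, and in both genes the Lynfl/fl cohort had the higher median and the Lynwt/wt cohort the lowest tumour.

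Ankrd37, an ankyrin repeat gene induced by HIF1, had 87.1 to 1220.2 (median 328) in Lynwt/wt, against 147 to 2520.2 (median 638) in Lynfl/fl tumours, a log2 fold change of 1.07 (SE 0.46, unadjusted p = 0.025, adjusted p = 0.352). Adm had 87.2 to 2589 (median 526) in Lynwt/wt, against 364 to 8199 (median 1379) in Lynfl/fl tumours, a log2 fold change of 1.51 (SE 0.67, unadjusted p = 0.0294, adjusted p = 0.371). The Adm median was the larger in Lynfl/fl tumours, yet its SE was the widest of the 6. Vegfa, the main angiogenic growth factor gene, had 1820.4 to 24124 (median 7339) in Lynwt/wt, against 1292 to 38785 (median 13364) in Lynfl/fl tumours, a log2 fold change of 0.77 (SE 0.42, unadjusted p = 0.0746, adjusted p = 0.494). As a group, 11 of the 12 hypoxia response genes had a positive log2 fold change in Lynfl/fl tumours (median 0.59), and none passed. The 16 glycolytic enzymes had 10 positive values (median 0.07).

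Other members that mark the pathway did not pass between Lynfl/fl and Lynwt/wt tumours either, each with overlapping cohorts. Slc2a1, the main glucose carrier gene of most cells, had 5593 to 25014 (median 12280.1) normalised counts in Lynfl/fl against 2311 to 16527 (median 11179) in Lynwt/wt, a log2 fold change of 0.47 (SE 0.33, adjusted p = 0.622). Hk2 had 1120.2 to 7816 (median 4122) against 1493 to 6851 (median 2982), a log2 fold change of 0.34 (SE 0.35, adjusted p = 0.765). Both were higher on average by less than 2 SE. Car9 had 282 to 6522 (median 1352) against 89.1 to 8533 (median 265), a log2 fold change of 0.75 (SE 0.67, adjusted p = 0.717). Pdk1, whose kinase keeps pyruvate out of the mitochondrial cycle, had 1622 to 9837 (median 6017) against 1838 to 14119.5 (median 5843), a log2 fold change of 0.01 (SE 0.28, adjusted p = 0.992). Car9 thus spread widely within both cohorts, and the estimate for Pdk1 lay near 0. Gapdh had 64258 to 187282 (median 125415) against 94106 to 313713 (median 160905), a log2 fold change of -0.32 (SE 0.20, adjusted p = 0.564). Hif1a had a log2 fold change of -0.44 (SE 0.25, adjusted p = 0.508). Epas1, which encodes HIF2 alpha, had 2396 to 7976 (median 5004) against 1641 to 8734 (median 5105), a log2 fold change of 0.12 (SE 0.29, adjusted p = 0.915). The SE of these 7 genes ran from 0.20 (Gapdh) to 0.67 (Car9), so the precision differed several-fold between members.

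The Lynfl/wt cohort, compared in the same fit, had no member past the test either. Against Lynwt/wt tumours 0% of all genes passed as higher and 0.0158% as lower, and at an unadjusted p under 0.05 the figures were 2 and 3 members beside 4.45% and 6.72% of all genes. Hif1a had 3358 to 7972 (median 5097) normalised counts in the Lynfl/wt cohort, 2829 to 22069 (median 8779.5) in the Lynwt/wt cohort and 3662 to 19089.5 (median 6074) in the Lynfl/fl cohort. Between the first 2 cohorts its log2 fold change was -0.93 (SE 0.25, unadjusted p = 0.000548, adjusted p = 0.133), the smallest p of any member in the cohort comparisons, and it was the 1 member that DESeq2 called lower, beside 0.542% of all genes. The Lynwt/wt tumours reached higher values than the Lynfl/wt tumours, with overlap. Pfkm had 844 to 4436 (median 3179) in Lynfl/wt and 662 to 10094 (median 4358) in Lynwt/wt tumours, a log2 fold change of -0.85 (SE 0.30, unadjusted p = 0.00713, adjusted p = 0.27). The highest Pfkm tumours were Lynwt/wt. Ankrd37 had 57.8 to 2364 (median 533) in Lynfl/wt against 87.1 to 1220.2 (median 328) in Lynwt/wt, a log2 fold change of 0.98 (SE 0.45, adjusted p = 0.409). Pdk1 had 2022 to 8688 (median 4002) against 1838 to 14119.5 (median 5843), a log2 fold change of -0.58 (SE 0.27, adjusted p = 0.416). These went in opposite directions and neither passed. Pfkfb3 had 1819 to 53687 (median 5185) against 1878 to 18089 (median 4629), a log2 fold change of 1.04 (SE 0.50, adjusted p = 0.435). Ndrg1 had 2773 to 105351 (median 48925) against 1286 to 112691 (median 12137), a log2 fold change of 1.09 (SE 0.55, adjusted p = 0.464). The 2 cohorts overlapped in each of these 6 members.

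Between Lynfl/fl and Lynfl/wt tumours 0% of all genes passed in either direction, and 0 members passed (0 with DESeq2, beside 0.205% of all genes higher and 0.374% lower). At an unadjusted p under 0.05, 3 members were higher and 1 lower, beside 3.64% and 3.37% of all genes. Aldoc, the brain aldolase gene, had 2418 to 227118 (median 15088) in Lynfl/fl against 3207 to 40313 (median 6290) in Lynfl/wt, a log2 fold change of 1.52 (SE 0.58, adjusted p = 0.588). Eno2 had 7.41 to 1235 (median 138) against 72.3 to 3655 (median 187), a log2 fold change of -1.65 (SE 0.68, adjusted p = 0.637). Here 1 minor form of an enzyme was higher in Lynfl/fl on average and the other lower, and neither passed. Egln1 had 4353 to 20021 (median 7311) against 3051 to 12558 (median 4732), a log2 fold change of 0.61 (SE 0.24, adjusted p = 0.635). Pdk1 had 1622 to 9837 (median 6017) against 2022 to 8688 (median 4002), a log2 fold change of 0.60 (SE 0.27, adjusted p = 0.673). Hk1 had 11454 to 39191 (median 18112) against 7978 to 25217 (median 14421), a log2 fold change of 0.42 (SE 0.22, adjusted p = 0.739). Each of these, and Hif1a (0.48, SE 0.24, adjusted p = 0.717), had overlapping cohorts. The 3 cohort comparisons share tumours, so their values for a member are not independent of each other.

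**Figure D2:**
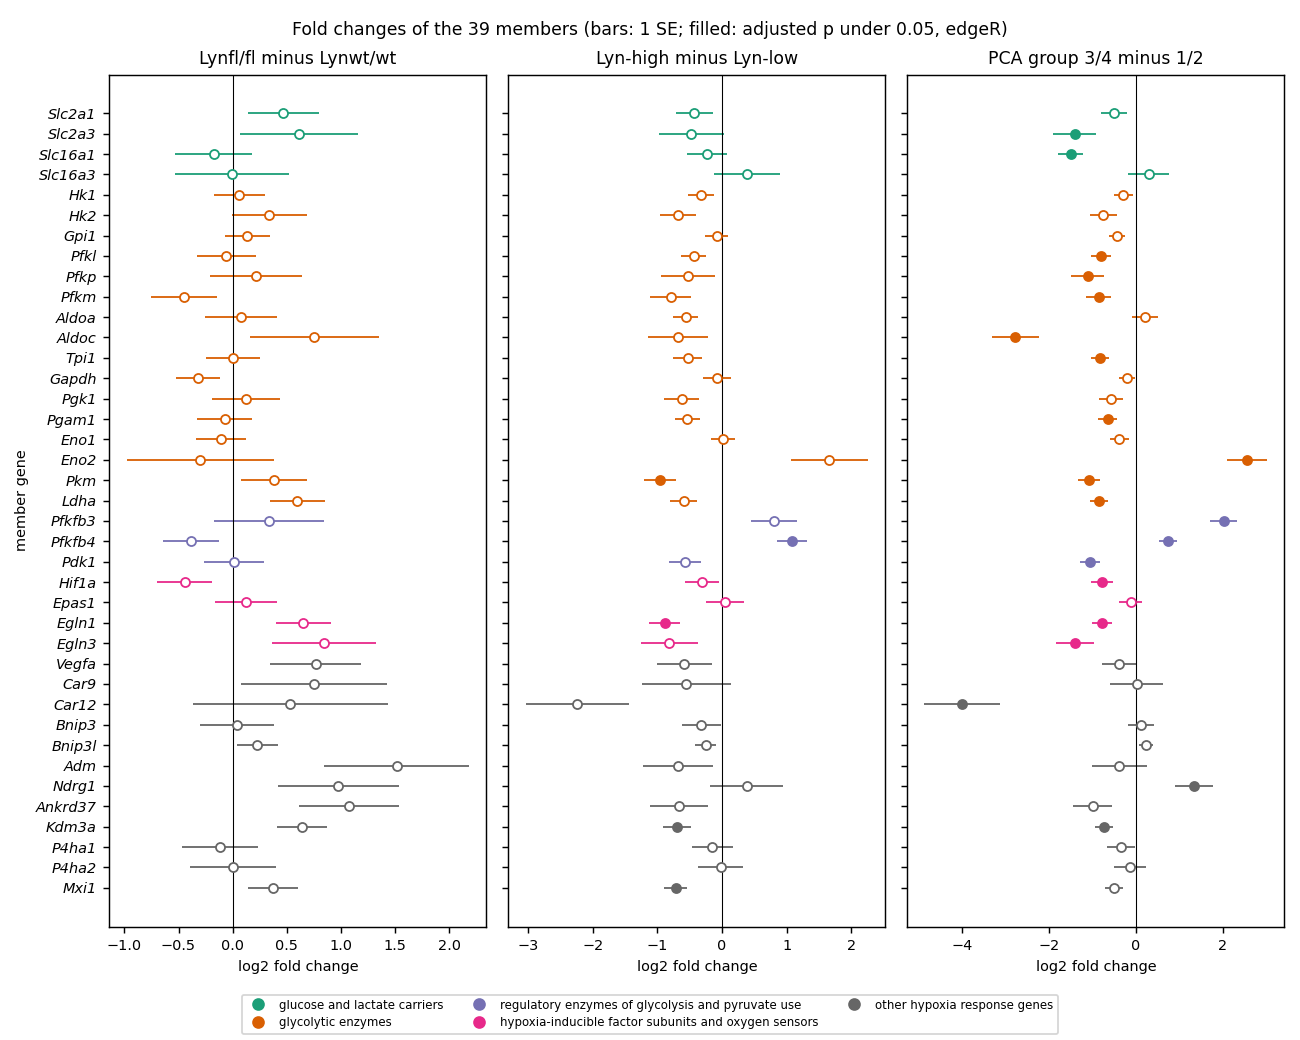
Log2 fold change of each member (points, with bars of 1 SE) between Lynfl/fl and Lynwt/wt tumours, Lyn-high and Lyn-low tumours, and PCA groups 3/4 and 1/2; filled points have an adjusted p under 0.05 in edgeR and colours give the role. No point is filled in the first panel, 5 are in the second and 20 in the third, where most members lie below 0 while Pfkfb3, Pfkfb4, Eno2 and Ndrg1 lie above it.

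The Lyn-high and Lyn-low tumours were compared next. Lyn counts ran from 672 to 2269 in Lyn-low and from 3246 to 11463 in Lyn-high tumours, which is how the groups were made. Most members were lower in Lyn-high tumours: 32 of the 39 log2 fold changes were negative, with a median of -0.53 against 0.03 over all genes. At an adjusted p under 0.05, 1 member was higher, while 6.58% of all 17709 genes were, and 4 were lower, while 1.07% of all genes were. With a fold change of at least 2 as well, 1 member was higher (5.52% of all genes) and 0 lower (0.508%). DESeq2 called 1 member higher (8.09% of all genes) and 7 lower in place of 4, with Aldoa, Car12 and Ldha in addition, where it called 2.68% of all genes lower in place of 1.07%. Of the 7, Car12 was past 2-fold (1.24% of all genes).

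Pfkfb4 (chr9:108991778-109032228 of GRCm38), whose enzyme can both make and break down an allosteric activator of phosphofructokinase, was the member that rose. It had 194 to 2116 (median 1187) normalised counts in Lyn-high tumours and 334 to 816 (median 549) in Lyn-low tumours (log2 fold change 1.08, SE 0.23, adjusted p = 0.00303). Of the 13 Lyn-high tumours 10 lay above every Lyn-low tumour, yet the lowest value of all, in WT.41, was Lyn-high as well. The 13 tumours in neither group had 576 to 1163 (median 681). Without WT.03, the tumour with the highest Pfkfb4 and Lyn counts, the log2 fold change was 0.93, adjusted p = 0.00919, so that it no longer reached 2-fold.

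The 4 members that fell were a transcription factor gene, an enzyme gene, an oxygen sensor gene and a demethylase gene. Mxi1 (chr19:53310518-53375810), a MYC antagonist, had 2055 to 5878 (median 3621) in Lyn-high and 2620.1 to 9345 (median 6897) in Lyn-low tumours (log2 fold change -0.71, SE 0.18, adjusted p = 0.0108). Pkm (chr9:59656368-59679375), the pyruvate kinase of most tissues, had 26324 to 154117 (median 91441) in Lyn-high and 94218 to 347939 (median 153659) in Lyn-low tumours (log2 fold change -0.96, SE 0.25, adjusted p = 0.0155). In both, at least 12 of the 13 Lyn-high tumours lay below the Lyn-low median, and the groups overlapped. Egln1 (chr8:124908587-124949324) had 2626 to 6758 (median 4719) in Lyn-high and 3541 to 20021 (median 8697) in Lyn-low tumours (log2 fold change -0.89, SE 0.24, adjusted p = 0.0168). Kdm3a (chr6:71588972-71632990) had 2659.9 to 9304 (median 5102) in Lyn-high and 4421 to 16099 (median 9533) in Lyn-low tumours (log2 fold change -0.69, SE 0.22, adjusted p = 0.0455). For Egln1, Kdm3a and Mxi1 all 13 Lyn-high tumours lay below the Lyn-low median. The call of Kdm3a lay close to the threshold. It was lost without WT.03 (adjusted p = 0.0575), with the stricter low-count filter (adjusted p = 0.0561), with the first part of the database ID as a covariate (adjusted p = 0.15) and with counts summed per animal and group (adjusted p = 0.0503). The call of Egln1 was lost with the animal as a random block in limma (adjusted p = 0.0519), a fit in which 1 member was higher (5.01% of all genes) and 5 lower (1.2%), Car12 and Ldha among them. Without the 3 tumours richest in muscle transcripts (WT.40, WT.39 and HET.07) 1 was higher (6.38%) and 6 lower (1.8%), Pfkm and Ldha in addition to the 4.

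**Figure D3:**
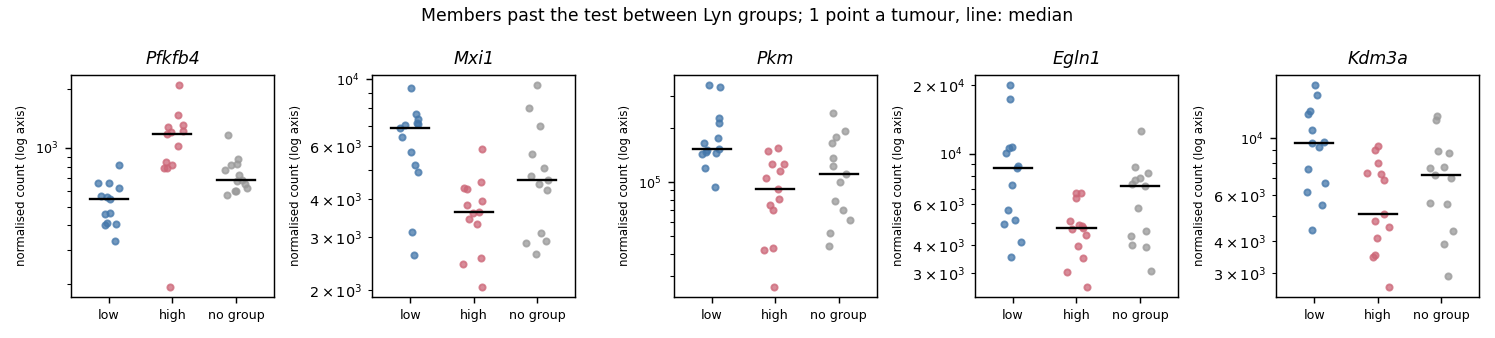
Normalised counts on a log axis of the 5 members past the test between Lyn groups; each point is a tumour of the Lyn-low, the Lyn-high or neither group (13 each) and the black line is the median. Pfkfb4 has its highest median in Lyn-high tumours, the other 4 members their lowest, and every pair of groups overlaps.

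None of these 5 calls held within PCA group 1/2, which holds 7 Lyn-high and all 13 Lyn-low tumours, or with the PCA group as a covariate. Few genes of any kind were lower there, 0.0583% of all genes within the group and 0.0508% with the covariate, while 1.63% and 2.17% were higher. The log2 fold change within PCA group 1/2 was 0.77, adjusted p = 0.187 for Pfkfb4 and -0.80, adjusted p = 0.135 for Pkm, which kept the directions. It was -0.90, adjusted p = 0.166 for Egln1, -0.63, adjusted p = 0.204 for Mxi1 and -0.53, adjusted p = 0.374 for Kdm3a. The first part of the database ID, 20 or 21, whose meaning the labels do not state, was also unevenly spread, with 9 Lyn-high and 4 Lyn-low tumours under 20, and 0 members passed within either part. Over all genes 1.5% passed as higher and 0.12% as lower within 20, and 0% in either direction within 21. The median over members was -0.58 within 20 and -0.54 within 21. Only 2 animals gave tumours to both Lyn groups (5 tumours). With the animal as a replicate block in edgeR, which compares the groups within these animals, 0 members and 0% of all genes passed. At an unadjusted p under 0.05, 1 member was then higher and 5 lower, beside 7.61% and 2.21% of all genes.

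Other members stayed short of the threshold between Lyn groups, all with overlapping values. Ldha had 13104 to 71390 (median 36499.9) normalised counts in Lyn-high against 39925 to 93557 (median 57069) in Lyn-low tumours, a log2 fold change of -0.59 (SE 0.21, adjusted p = 0.091). Hk2 had 1088 to 6900.4 (median 2561) against 1928 to 7816 (median 5697), a log2 fold change of -0.68 (SE 0.27, adjusted p = 0.141). Slc2a1 had 2311 to 16527 (median 8639) against 3562 to 25014 (median 12280.1), a log2 fold change of -0.43 (SE 0.29, adjusted p = 0.419). All 3 genes had the lower median in Lyn-high tumours. Pdk1 had 1838 to 14119.5 (median 4173) against 1955 to 9837 (median 7202), a log2 fold change of -0.57 (SE 0.25, adjusted p = 0.174). Gapdh had 64258 to 313713 (median 100190) against 92311 to 235519 (median 140006), a log2 fold change of -0.08 (SE 0.21, adjusted p = 0.877). Gapdh thus differed by less than its spread within either group. Vegfa had 1292 to 24124 (median 6375) against 1820.4 to 38785 (median 12576), a log2 fold change of -0.58 (SE 0.43, adjusted p = 0.48). Car9 had 91.7 to 9609.7 (median 478) against 89.1 to 8533 (median 1631), a log2 fold change of -0.55 (SE 0.69, adjusted p = 0.705). Both classical targets spread over more than a 10-fold range. Hif1a had 2829 to 17276 (median 5769) against 3358 to 19089.5 (median 8481), a log2 fold change of -0.30 (SE 0.26, adjusted p = 0.554). Epas1 had 964 to 8777 (median 4798) against 1641 to 8124 (median 4786), a log2 fold change of 0.04 (SE 0.30, adjusted p = 0.955). Of the members with a wide range, Car12 (-2.24, SE 0.80, adjusted p = 0.0892), Adm (-0.68, SE 0.54, adjusted p = 0.51), Eno2 (1.66, SE 0.60, adjusted p = 0.0934) and Ndrg1 (0.38, SE 0.57, adjusted p = 0.762) did not pass either.

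Leukocyte transcripts moved with the Lyn groups. The summed level of 7 pan-leukocyte markers was 13267 to 85584, median 43645, in Lyn-high and 6634 to 20845, median 13978, in Lyn-low tumours, and 7 of 7 were higher. All 7 T cell and 5 B cell markers and 7 of 8 macrophage markers were higher too. The 7 luminal epithelial markers, which fit the tissue label and were present in every tumour, did not pass. Of 6 neutrophil markers 2 were higher and of 5 basal epithelial markers 1, with 0 lower in either list. Over all genes 6.58% were higher. The part of the leukocytes in the members' differences was not tested. In these bulk samples fewer cells of a type and less RNA per cell cannot be told apart.

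The largest differences of the members lay between the PCA groups. These groups were made from the expression of all genes in the same libraries, members included, so the tests below measure a difference against the spread between tumours and are not independent of the grouping. Of the 39 members 30 had a negative log2 fold change in PCA group 3/4, with a median of -0.51 against -0.05 over all 19453 genes. At an adjusted p under 0.05, 4 members were higher (12.2% of all genes) and 16 lower (10.5% of all genes). With at least 2-fold as well, 3 were higher (7.71%) and 8 lower (6.45%). By role, lower were 8 of 16 glycolytic enzymes, 2 of 4 carriers, 3 of 4 HIF subunits and sensors, 1 of 3 regulatory enzymes and 2 of 12 hypoxia response genes. No member separated the groups completely.

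Of the carriers of glucose and lactate 2 fell and 2 did not pass. Slc16a1 (chr3:104638668-104658462), a carrier that moves lactate across the membrane, had 658 to 4406 (median 1778) normalised counts in PCA group 3/4 and 1888 to 10556 (median 4965) in PCA group 1/2 (log2 fold change -1.50, SE 0.28, adjusted p = 0.000129). Slc2a3 (chr6:122727809-122801640) had 67 to 272 (median 176) in PCA group 3/4 and 60.5 to 1797 (median 261) in PCA group 1/2 (log2 fold change -1.40, SE 0.49, adjusted p = 0.0354). For Slc16a1 all 10 tumours of group 3/4 lay below the median of group 1/2, whereas Slc2a3 spread widely in group 1/2. Slc2a1 had 5526 to 15817 (median 8811) and 2311 to 50505 (median 12280.1). It (-0.51, SE 0.30, adjusted p = 0.237) and the lactate exporter gene Slc16a3 (0.30, SE 0.47, adjusted p = 0.703) did not pass.

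At the aldolase and enolase steps 1 member form passed and the other did not, a contrast between forms that was not itself tested. In edgeR over all tumours without covariates, all 3 phosphofructokinase genes fell and neither hexokinase gene passed. Aldoc (chr11:78322968-78327781) had 2098 to 6833 (median 4354) in PCA group 3/4 and 3861 to 227118 (median 15816) in PCA group 1/2 (log2 fold change -2.77, SE 0.54, adjusted p = 0.000176). As many as 24 of the 29 tumours of group 1/2 lay above every tumour of group 3/4. Aldoa, the other aldolase gene measured, had 37606 to 348324 (median 59916) and 34520.1 to 252773 (median 71312) in the same order and did not pass (log2 fold change 0.21, SE 0.29, adjusted p = 0.658). The share of Aldoc in the pair with Aldoa, per length, thus had a median of 5.4% in PCA group 3/4 and 16.7% in PCA group 1/2.

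Eno2 (chr6:124760053-124769673) rose, with 126 to 3655 (median 520) in PCA group 3/4 and 7.41 to 1332 (median 133) in PCA group 1/2 (log2 fold change 2.56, SE 0.46, adjusted p = 6.46e-05). The more abundant Eno1 did not pass (log2 fold change -0.38, SE 0.21, adjusted p = 0.213). The highest Eno2 tumours, HET.49 and HET.25, were of group 3/4. The median share of Eno2 in the pair with Eno1, per length, yet stayed at 0.652% in group 3/4, against 0.184% in group 1/2.

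The other glycolytic enzymes past both thresholds fell. Pkm had 26324 to 149547 (median 56966) in PCA group 3/4 and 69806 to 347939 (median 145421) in PCA group 1/2 (log2 fold change -1.08, SE 0.25, adjusted p = 0.00141). Pfkp (chr13:6579768-6648777) had 2116 to 23934 (median 4639.7) in PCA group 3/4 and 1903 to 42180.4 (median 13268) in PCA group 1/2 (log2 fold change -1.10, SE 0.38, adjusted p = 0.0305). In each, 9 of the 10 tumours of group 3/4 lay below the median of group 1/2, the exceptions being WT.03 for Pkm and HET.08 for Pfkp. Below 2-fold but past the test were Tpi1, the triose phosphate isomerase gene (-0.83, SE 0.20, adjusted p = 0.00209), Ldha (-0.85, SE 0.22, adjusted p = 0.00362), Pfkl (-0.79, SE 0.23, adjusted p = 0.00992), the phosphoglycerate mutase gene Pgam1 (-0.65, SE 0.22, adjusted p = 0.0259) and Pfkm (-0.85, SE 0.29, adjusted p = 0.0284), as log2 fold changes. With the ID part as a covariate the calls of Pfkp and Pfkm were lost. Ldha had 13104 to 61002 (median 33938) and 27478 to 118142 (median 60823) normalised counts in the 2 groups. Hk2 had 1088 to 6900.4 (median 2145) and 1025 to 9075 (median 3899.6) and a log2 fold change of -0.75 (SE 0.31, adjusted p = 0.0728), which did not pass. Hk2 did pass with DESeq2 (adjusted p = 0.04) and, in edgeR, with the ID part as a covariate (adjusted p = 0.0427). It also passed there with counts summed per animal and group (adjusted p = 0.0213). Gapdh had 87535 to 188229 (median 106399) and 58374 to 313713 (median 144977) (log2 fold change -0.21, SE 0.18, adjusted p = 0.446) and did not pass. Hk1 (-0.29, SE 0.22, adjusted p = 0.369), Gpi1 (-0.43, SE 0.18, adjusted p = 0.0853) and the phosphoglycerate kinase gene Pgk1 (-0.57, SE 0.28, adjusted p = 0.135) did not pass.

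The 3 regulatory enzymes split. Pfkfb3 (chr2:11471433-11554077), a glycolysis-activating relative of Pfkfb4, had 4072 to 53687 (median 13338) in PCA group 3/4 and 1819 to 18089 (median 4185) in PCA group 1/2 (log2 fold change 2.02, SE 0.31, adjusted p = 4.89e-06), the smallest p of all members. Pfkfb4 had 598 to 2116 (median 1175) and 194 to 1485 (median 650.1) in the same order (log2 fold change 0.74, SE 0.21, adjusted p = 0.00769). Both were above the group 1/2 median in 9 of 10 tumours of group 3/4. The call of Pfkfb4 was lost with the ID part as a covariate, within ID part 21 and when Lyn-low tumours were left out. Pdk1 (chr2:71873224-71903858) had 1622 to 4324 (median 3226) and 1955 to 14119.5 (median 6017) (log2 fold change -1.06, SE 0.23, adjusted p = 0.000776), and 23 of the 29 tumours of group 1/2 lay above every tumour of group 3/4.

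Of the HIF system, 1 alpha subunit gene and both sensor genes fell. Hif1a had 2829 to 8531 (median 4308) in PCA group 3/4 and 3358 to 22069 (median 6740.2) in PCA group 1/2 (log2 fold change -0.77, SE 0.25, adjusted p = 0.0203). Epas1 had 964 to 9419 (median 4240.1) and 1641 to 8777 (median 5004) (log2 fold change -0.12, SE 0.26, adjusted p = 0.798) and did not pass. Egln3 (chr12:54178981-54203860), a second HIF prolyl hydroxylase gene, had 2363 to 10752 (median 4102) and 1600.4 to 38505 (median 10275) (log2 fold change -1.39, SE 0.44, adjusted p = 0.0181), and Egln1 had a log2 fold change of -0.78 (SE 0.23, adjusted p = 0.0125). The call of Egln3 was lost with the animal as a random block in limma (adjusted p = 0.0681) and that of Hif1a with the ID part as a covariate (adjusted p = 0.0939). Hif1a and the sensors overlapped between the groups.

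The classical hypoxia targets did not move as 1 block. Car12 (chr9:66713686-66766845) had 12 to 3097 (median 63.5) in PCA group 3/4 and 200 to 54292 (median 4160.4) in PCA group 1/2 (log2 fold change -3.99, SE 0.87, adjusted p = 0.000707), and 8 of the 10 tumours of group 3/4 lay below every tumour of group 1/2. Ndrg1 (chr15:66929318-66969640) went the other way, with 33497 to 126888 (median 67529) and 1286 to 114399 (median 21749.9) (log2 fold change 1.34, SE 0.44, adjusted p = 0.0239), all 10 tumours of group 3/4 lying above the group 1/2 median. Kdm3a fell by less than 2-fold (log2 fold change -0.72, SE 0.21, adjusted p = 0.00975). Car9 had 213 to 9609.7 (median 620.1) and 89.1 to 8533 (median 1099) and a log2 fold change of 0.02 (SE 0.61, adjusted p = 0.988). Vegfa had 4222 to 17083 (median 10008) and 1292 to 38785 (median 12576) and a log2 fold change of -0.38 (SE 0.39, adjusted p = 0.539). Thus Car9 and Vegfa did not pass, with errors that allow a difference in either direction. The same holds for Adm (-0.38, SE 0.64, adjusted p = 0.724), the mitophagy gene Bnip3 (0.12, SE 0.30, adjusted p = 0.831) and the collagen prolyl hydroxylase genes P4ha1 (-0.34, SE 0.33, adjusted p = 0.502) and P4ha2 (-0.13, SE 0.36, adjusted p = 0.836). Bnip3l (0.24, SE 0.17, adjusted p = 0.333), Ankrd37 (-0.99, SE 0.44, adjusted p = 0.101) and Mxi1 (-0.51, SE 0.20, adjusted p = 0.0632) did not pass either.

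**Figure D4:**
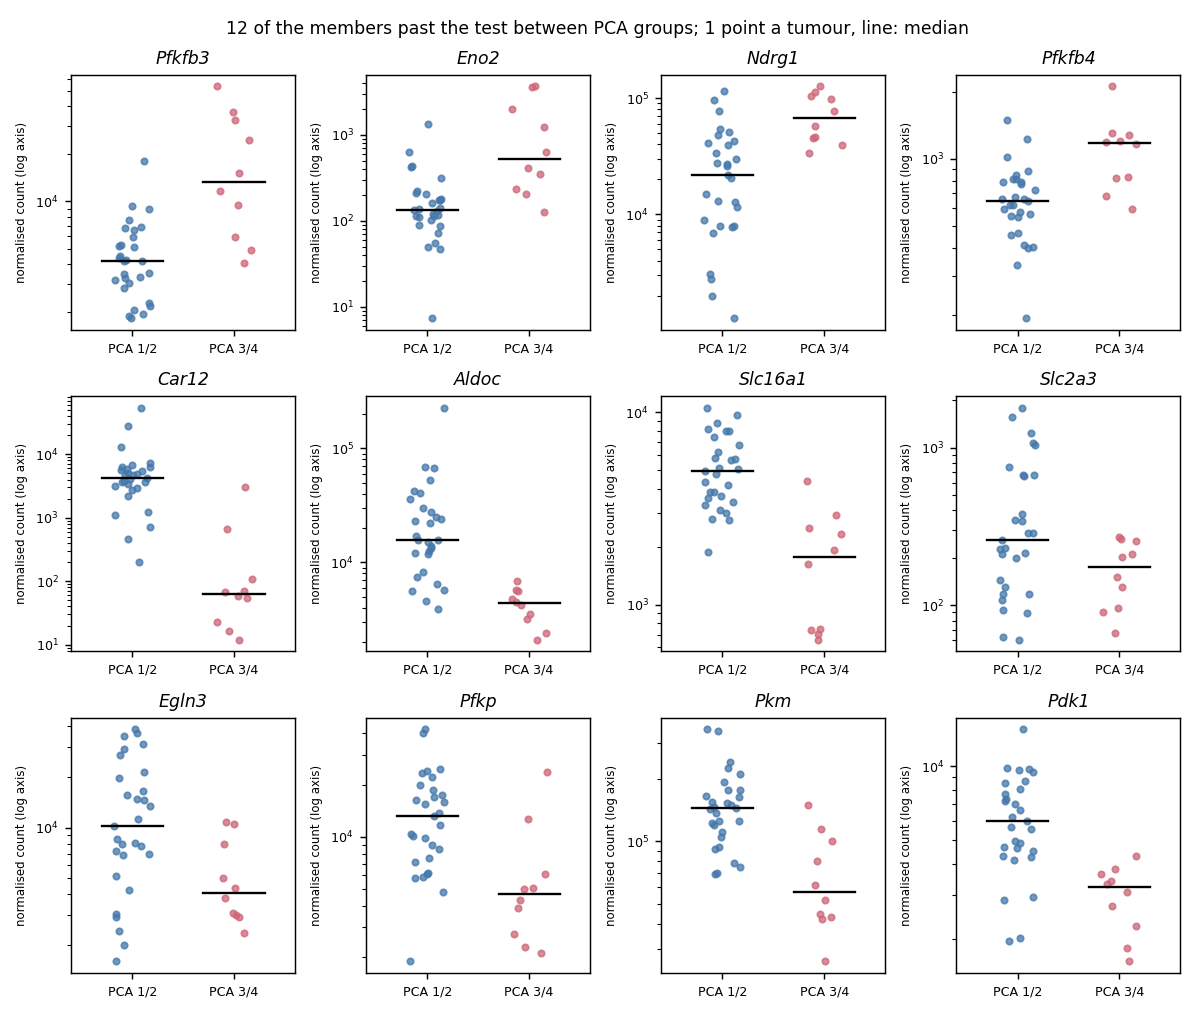
Normalised counts on a log axis of 12 members past the test between PCA groups; each point is a tumour of PCA group 1/2 (29) or 3/4 (10) and the black line is the median. Pfkfb3, Eno2, Ndrg1 and Pfkfb4 have the higher median in group 3/4 and the other 8 the lower one, with overlapping points in every panel.

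Animal, ID and Lyn group were unevenly spread between the PCA groups. Animal 20-078 gave 3 of the 10 tumours of group 3/4, and without it 4 members were higher (11.8% of all genes) and 18 lower (9.62%), 13 of them by at least 2-fold in place of 8 (6.42% in place of 6.45%). Slc2a3 and Pfkm then lost their calls (adjusted p = 0.0772 and 0.175), Hk2 passed (-1.11, adjusted p = 0.0201), and Car12 had a log2 fold change of -5.62, adjusted p = 5.6e-05. Under ID part 20 (7 tumours of group 3/4 and 11 of group 1/2) 3 members were higher and 3 lower, beside 4.35% and 2.53% of all genes. Under 21 (3 and 18 tumours) 2 were higher and 6 lower, beside 7.02% and 3.94%. The median over members was -0.57 within 20 and -0.75 within 21. Pfkfb3, Eno2 and Slc16a1 passed within both, with log2 fold changes of 1.28 and 2.99, 2.16 and 3.32, and -1.13 and -2.90. Group 3/4 held no Lyn-low tumour. Against only those tumours of group 1/2 that were not Lyn-low, 3 members were higher and 7 lower, beside 8.31% and 7.43% of all genes.

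Within animals, 4 gave tumours to both PCA groups (9 tumours). With the animal as a replicate block in edgeR 0 members passed as higher (1.12% of all genes) and 1 as lower (0.432%), namely Pkm (log2 fold change -1.26, SE 0.28, adjusted p = 0.0466). The 20 members called over all tumours kept their direction. Among them were Pfkfb3 (2.98, SE 0.89, adjusted p = 0.108), Aldoc (-2.31, SE 0.65, adjusted p = 0.0925) and Car12 (-5.68, SE 1.49, adjusted p = 0.075), as log2 fold changes. At an unadjusted p under 0.05, 3 members were higher and 4 lower, beside 8.76% and 7.41% of all genes. Taking the difference of mean log2 CPM in each animal, 5 members were higher in group 3/4 in all 4 animals (Pfkfb3, Eno2, Ndrg1, Vegfa and Bnip3) and 9 were lower in all 4 (Slc2a3, Aldoc, Tpi1, Pgam1, Pkm, Ldha, Slc16a1, Car12 and Egln1). The difference ran from -1.66 to -0.89 for Pkm, from -7.23 to -3.92 for Car12 and from 0.32 to 4.79 for Pfkfb3. Vegfa and Bnip3 did not pass over all tumours, where the log2 fold change of Vegfa was negative. Agreement in all 4 animals was not counted over all genes, so the numbers of members have no background and are descriptions only. With the animal as a random block in limma, over all tumours, 4 members were higher (12.9% of all genes) and 13 lower (8.08%), Slc2a3, Pfkm and Egln3 being lost (adjusted p = 0.195, 0.0874 and 0.0681).

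Pan-leukocyte markers summed to 27920.3 to 85584, median 44901, in PCA group 3/4 and to 6634 to 56924, median 19618, in PCA group 1/2, and 7 of 7 were higher. So were 7 of 8 macrophage and 3 of 7 T cell markers. Of 7 luminal and 5 basal epithelial markers 1 each was higher and 0 lower, where 12.2% of all genes were higher. None of the 5 B cell and 6 neutrophil markers passed, and 5 of the neutrophil markers had a negative log2 fold change. Skeletal muscle markers summed to 499 to 9326, median 2403, in group 3/4 and to 39 to 213938, median 279.9, in group 1/2 (0 of 7 passed). Without the 3 tumours richest in muscle transcripts (WT.40, WT.39 and HET.07) 4 members were higher (11.7% of all genes) and 14 lower (10.3%), Slc2a3 and Pfkm falling just short (adjusted p = 0.0508 and 0.0528). The part of the leukocytes was not tested.

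Further genes of these pathways, taken as 3 lists, had calls in both directions between PCA groups. Over all genes 12.2% were higher and 10.5% lower in this comparison. Of 23 tested genes of 25 in a list of other glycolysis and pyruvate genes, 3 rose and 6 fell. The hexokinase gene Hk3 rose (log2 fold change 1.17, SE 0.32, adjusted p = 0.00542), as did the muscle fructose bisphosphatase gene Fbp2 (log2 fold change 3.64, SE 0.94, adjusted p = 0.00399), whose median was yet lower in group 3/4 (4.2 to 12736, median 22.1 against 0 to 4036, median 48.2, highest in HOM.54), and the insulin-responsive glucose carrier gene Slc2a4 (log2 fold change 1.88, SE 0.53, adjusted p = 0.00775). Pdha1, a subunit of pyruvate dehydrogenase, fell (log2 fold change -0.59, SE 0.15, adjusted p = 0.00274). Of 7 other HIF pathway genes 3 fell, Arnt2 (-1.99), Cited2 (-0.76) and Hif3a (-3.98), as log2 fold changes, the last lost without the tumours rich in muscle transcripts, as described below. Of 28 other hypoxia targets 2 rose and 9 fell, with Ppp1r3c, a glycogen-targeting phosphatase subunit (log2 fold change -4.41, SE 0.82, adjusted p = 9.15e-05), Zfp395 (log2 fold change -1.34, SE 0.28, adjusted p = 0.000507), Fam162a (log2 fold change -0.84, SE 0.20, adjusted p = 0.00232) and Plod1, a collagen lysyl hydroxylase (log2 fold change -1.34, SE 0.36, adjusted p = 0.00517), having the smallest p.

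The same lists had few calls in the other comparisons. Between Lyn groups 6.58% of all genes were higher and 1.07% lower, and between Lynfl/fl and Lynwt/wt tumours 0.00526% and 0.0316%. Between Lyn groups Hk3 (log2 fold change 1.67, SE 0.34, adjusted p = 0.0016) and the endothelin gene Edn1 (log2 fold change 1.45, SE 0.45, adjusted p = 0.0444) were higher in Lyn-high tumours. Lower were Hif3a (log2 fold change -4.63, SE 1.29, adjusted p = 0.0237, highest in WT.40), Zfp395 (log2 fold change -1.03, SE 0.26, adjusted p = 0.0123), the adenylate kinase gene Ak4 (log2 fold change -1.28, SE 0.35, adjusted p = 0.0204) and Fam162a (log2 fold change -0.62, SE 0.19, adjusted p = 0.036). Between Lynfl/fl and Lynwt/wt tumours Hif3a, a HIF subunit gene that is no member, was the only gene of the 3 lists that passed (log2 fold change -6.28, SE 1.16, adjusted p = 0.0372). It had 0 to 10.4, median 4.91 normalised counts in Lynfl/fl against 1.04 to 4632, median 12.5 in Lynwt/wt tumours, the highest value being that of WT.40, the tumour with the most skeletal muscle transcripts. Without the 3 tumours rich in these, its log2 fold change was -1.48, adjusted p = 0.312, here and -0.04, adjusted p = 0.971, between PCA groups, and it was too low to be tested between Lyn groups.

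Members were then compared with each other across the 39 tumours, on log2 CPM, the counts scaled to a common library size (prior count 2). Of the 741 pairs 577 had a positive Spearman's rho, with a median of 0.262. After adjustment over the 741 pairs 251 passed as positive and 30 as negative (permutation test, two-sided, 100000 resamples). The permutations take all tumours as independent, although some share an animal. The pairs that passed were 56 positive and 2 negative of 120 among glycolytic enzymes, and 25 positive and 1 negative of 66 among hypoxia response genes. Pairs of other genes were not computed, so these counts have no background. They do not show that members vary together more than other genes of the same tumour pieces.

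The strongest pair was Pgk1 and Pgam1, enzymes of the lower part of the pathway (rho = 0.78, r = 0.806, permutation p = 1e-05 for rho and 1e-05 for r, adjusted p = 0.000337 and 0.000225, n = 39). Here 1e-05 is the smallest p that these permutations can give. Without the 2 tumours farthest from the median of Pgk1, r was 0.773, and rho was 0.713 within PCA group 1/2 and 0.879 within PCA group 3/4. Ldha and Ankrd37 followed (rho = 0.773, r = 0.803, permutation p = 1e-05 for rho and 1e-05 for r, adjusted p = 0.000337 and 0.000225, n = 39), with r = 0.726 without 2 tumours and rho 0.699 within PCA group 1/2 and 0.818 within PCA group 3/4. These relations held within both PCA groups and, for rho, under ID parts 20 and 21 (0.726 and 0.812 for the first pair, 0.775 and 0.779 for the second).

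The next 3 pairs joined Pgk1 or Hk2 to other members. Tpi1 and Pgk1 had rho = 0.729 and r = 0.799, and Pgk1 and Egln1 had rho = 0.729 and r = 0.717. Hk2 and Kdm3a had rho = 0.727 and r = 0.724. For each of these the permutation p was 1e-05 for both rho and r, with adjusted p = 0.000337 for rho and 0.000225 for r (n = 39). Without 2 tumours r was 0.732, 0.656 and 0.668. Within PCA groups 1/2 and 3/4 rho was 0.598 and 0.939 for the first, 0.682 and 0.806 for the second, and 0.668 and 0.491 for the third, which did not pass within the 10 tumours of group 3/4 (permutation p = 0.155). Pgk1, the gene with the highest median rho to all other members (0.507), passed in 26 of its 38 pairs.

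Pfkfb4 ran against the rest. Its median rho to the other members was -0.331, and the lowest rho of all pairs was that of Pfkfb4 and Egln3 (rho = -0.703, r = -0.67, permutation p = 1e-05 for rho and 1e-05 for r, adjusted p = 0.000337 and 0.000225, n = 39). Without 2 tumours r was -0.622, and rho was -0.691 within PCA group 1/2 and -0.224 within PCA group 3/4, so the relation did not hold in the smaller group (permutation p = 0.534). Hif1a and Ndrg1 came next (rho = -0.662, r = -0.618, permutation p = 2e-05 for rho and 3e-05 for r, adjusted p = 0.000423 and 0.000419, n = 39), with r = -0.731 without 2 tumours and rho -0.527 within PCA group 1/2 and -0.709 within PCA group 3/4. Pfkfb4 and Pdk1 were the third (rho = -0.591, r = -0.536, permutation p = 7e-05 for rho and 0.00029 for r, adjusted p = 0.00104 and 0.00205, n = 39), with r = -0.469 without 2 tumours. Its rho was -0.484 within PCA group 1/2 and 0.261 within PCA group 3/4, a change of sign that did not pass in either sense in group 3/4 (permutation p = 0.471). Under ID parts 20 and 21 rho was -0.713 and -0.712 for the first of these pairs, -0.554 and -0.695 for the second and -0.484 and -0.504 for the third.

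**Figure D5:**
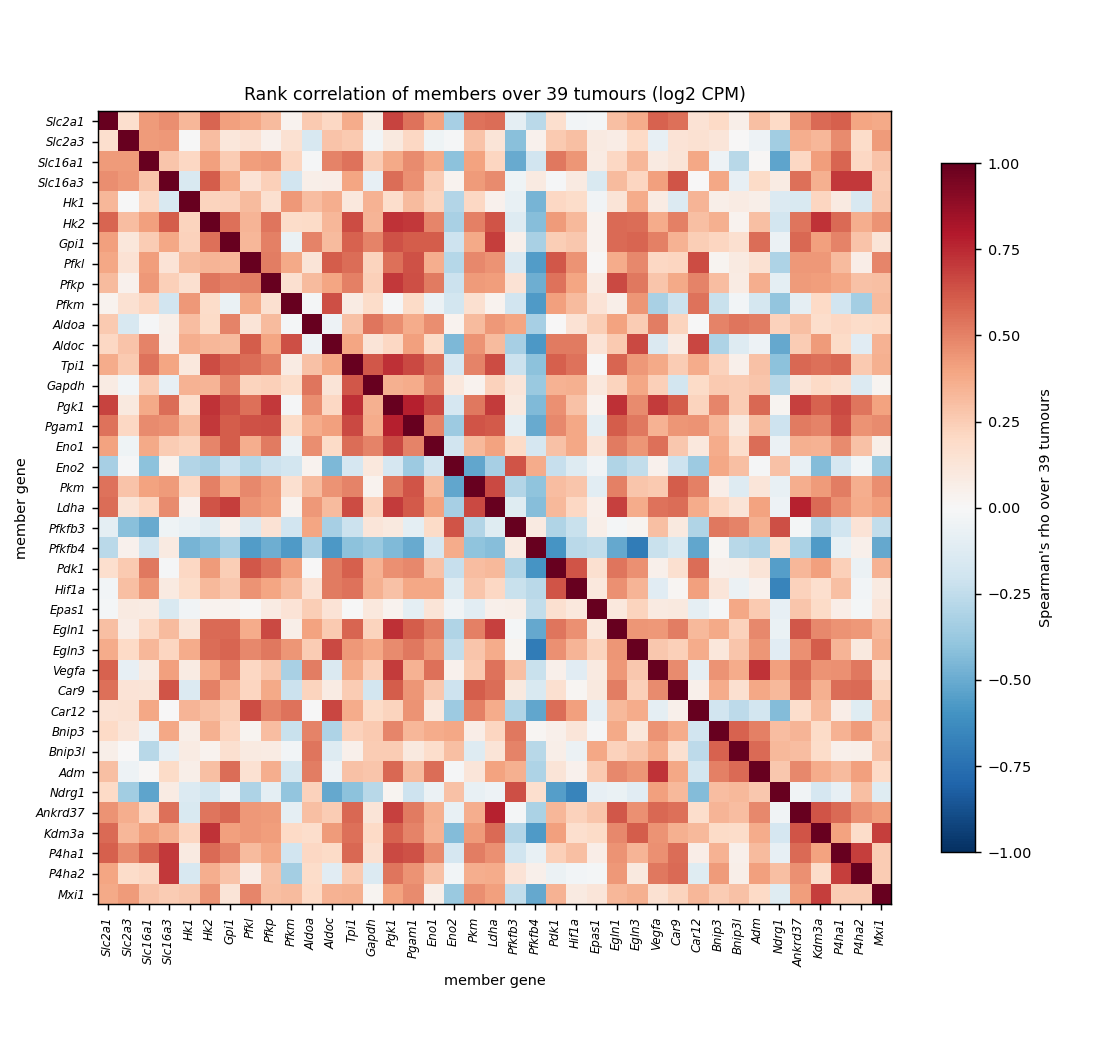
Spearman's rho between the log2 CPM of each pair of the 39 members over 39 tumours, in the same order on both axes by role; red is positive and blue negative. Most cells are red, with Pgk1 and Pgam1 the deepest pair (0.78), and the row of Pfkfb4 is mostly blue, reaching -0.70 with Egln3.

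The closest partner by rho was a hypoxia gene for some members and an enzyme or carrier gene for others. Vegfa was closest to Adm (rho = 0.719), Bnip3 to Bnip3l (0.592) and Car9 to Slc16a3 (0.627). Epas1 passed in 1 of 38 pairs and had its highest rho, 0.385, with Bnip3l. Gapdh passed in 5 of 38, with Tpi1 closest (0.623). These closest pairs are given as descriptions over 39 tumours.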

How the data were processed

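Poly(A) RNA libraries of 39 tumours were analysed. Reads were trimmed (fastp), mapped to GRCm38 (STAR 2.5.1b, uniquely mapping reads kept) and assigned to Gencode vM17 genes (featureCounts 1.5.1) by the authors; the analysis began from the raw counts, as deposited. The deposited normalised signal is the authors' count divided by a DESeq2 size factor and was not tested. Of the 53715 genes 14411 had no count. Among values of 1 to 10, 79.8% were even, as though mates were counted singly. Columns with the authors' own fold changes and p-values were not used.

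Counts were tested with edgeR 4.0.16 in R 4.3.3 (low-count filter, TMM, quasi-likelihood F test, Benjamini-Hochberg adjustment over all genes kept). SE is the log2 fold change over the root of F. Calls used an adjusted p under 0.05, and in addition a 2-fold change in either direction. Genotypes shared 1 fit of all tumours; the Lyn comparison used 26 tumours and the PCA comparison 39. The script was checked on simulated data. Alternatives were DESeq2 1.42.0, its size factors, no filter or a stricter one, the ID part (20 or 21), limma 3.58.1 with the animal as a random block, counts summed per animal and group, and subsets of tumours. The database ID names the animal, and 4 animals gave tumours to both PCA groups and 2 to both Lyn groups, so the animal was also a replicate block in edgeR. The consensus correlation of tumours of the same animal was 0.035 and 0.069 in these comparisons. Exon lengths and positions came from Gencode vM21 (GRCm38), promoters from RefSeq.

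Values by group were given, per comparison, for members past both thresholds and otherwise the 6 with the smallest p, for the 5 with the widest range, and for Slc2a1, Hk2, Ldha, Pdk1, Hif1a, Epas1, Vegfa, Car9 and Gapdh. Pairs were the 5 with the highest and the 3 with the lowest rho, and at most 4 genes were named from each further list. Other names were chosen after their values were seen. Members and lists were chosen with earlier results of these data known.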

Additional observations from a re-analysis of the deposited data

How the results depend on the processing

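The cohorts share no animal, so tumours were paired by animal between Lyn groups and between PCA groups only. With the animal as a replicate block, a choice made after seeing the data, 0 members were higher and 0 lower between Lyn groups, and 0 were higher (0 past 2-fold) and 1 lower (1 past 2-fold) between PCA groups. This fit rests on 2 and on 4 animals. Between cohorts the counts of 0 members held under every alternative run except that DESeq2 called 1 member lower in Lynfl/wt than in Lynwt/wt tumours. Between Lyn groups the 1 higher member became 0 within ID part 20, within part 21, with the PCA group as a covariate and within PCA group 1/2, and so did the 4 lower members in these 4 settings; DESeq2 gave 7 lower. Past 2-fold as well, the higher count was 0 in those settings, with the ID part as a covariate, with the animal as a random block, and without Lynwt/wt replicate 3 (WT.03). Over all genes it ran there from 0 of 19468 within part 21 to 852 of 17858 without WT.03. The lower count past 2-fold was 1 with DESeq2 (219 of all 17709 genes) and without a filter (212 of 37847). It was also 1 with the ID part as a covariate (26 of 17709) and without Lynwt/wt replicate 3 (76 of 17858). With the animal as a random block it was 2 (128 of 17709). Leaving out the 3 tumours richest in muscle transcripts, a choice made after seeing the data, gave 1 higher and 6 lower members between Lyn groups (1 and 1 past 2-fold) and 4 and 14 between PCA groups. Of all 17787 genes 959 were then higher and 182 lower past 2-fold between Lyn groups. Between PCA groups 2 members were higher within ID part 21 (7.02% of all genes). Lower were 3 within part 20 (2.53%), 6 within part 21 (3.94%) and 7 outside the Lyn-low group (7.43%). Past 2-fold, 3 were lower within part 20 (378 of 18478 genes) and 5 with the animal as a random block (906 of 19453). Without animal 20-078 the number was 13 (1295 of 20160), and outside the Lyn-low group it was 3 (936 of 18491). Fewer tumours enter the subsets; beyond that the cause was not tested. No call turned its direction. The rho of Pfkfb4 and Pdk1 was 0.261 within PCA group 3/4. The median rho over pairs was 0.226 within PCA group 1/2 and 0.176 within PCA group 3/4. The consensus correlation of tumours of 1 animal was -0.016 in the fit of cohorts, 0.069 in that of Lyn groups and 0.035 in that of PCA groups. With 10 tumours in PCA group 3/4 and SEs near 0.6 for Car9 and Adm, changes under 2-fold in such variable members could be missed. Changes above 2-fold could be missed as well, and the smallest change that would pass was not worked out.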

Other observations

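Single tumours stood out over many members. HET.45, a Lynfl/wt tumour of PCA group 1/2, was among the 5 highest of the 39 tumours in 23 members and among the 5 lowest in 0. It had the highest Slc2a1, Hk2, Gpi1, Pgk1 and Adm. HET.27, HOM.38 and HOM.35 were among the 5 highest in 12 members each. WT.41 was split, among the 5 highest in 8 members and the 5 lowest in 11: it had the highest Pdk1, Gapdh and Egln3 and the lowest Slc2a1, Slc16a3, Pfkfb4, P4ha2 and Mxi1. HET.49, of PCA group 3/4, was among the 5 lowest in 22 members and yet had the highest Aldoa, Eno2 and Epas1.

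Tumours of the same animal were not generally alike in these genes. Over 13 pairs from the same animal and 222 pairs from different animals of the same cohort, the median gap in log2 CPM was smaller within animals in 20 of 39 members. The ratio of the gaps ran from 0.419 (Egln3, 0.54 within and 1.28 between) to 1.53 (Car12, 3.89 within and 2.55 between), with a median of 0.969. These are descriptions with no test.

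Skeletal muscle markers were concentrated in 3 tumours of PCA group 1/2. Their summed normalised counts were 213938 in WT.40, 154088 in WT.39 and 112365 in HET.07, against 32362 in the next tumour, HET.29. Pfkm, the muscle form of phosphofructokinase, had 9504 normalised counts in WT.40 and 7041 in WT.39, among its 5 highest values.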
